A study of Mus musculus with 8 samples.

Results

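The SOX transcription factors followed here are 10 genes of the embryonic mouse cerebellum, measured with and without Pals1, and 8 of the 10 had probes on the array. They were chosen by symbol in the platform's probe annotation, among 16593 gene symbols in all. Sox1, Sox2, Sox3, Sox4, Sox5, Sox8, Sox9 and Sox21 were read by 14 of the 25697 probes. No probe of the annotation used here carries the symbol Sox10 or Sox11, so those members were not analysed here. Of the 14 probes, 11 were bright enough to be tested, and they cover 7 genes. Sox3 and a probe each of Sox5 and Sox21 were too dim.

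The arrays measured total RNA of whole cerebellum at embryonic day 17.5, an array per animal. All 8 animals were homozygous for a floxed Pals1 allele (Pals1 fl/fl). The 4 control animals (WT) lacked Cre, so WT here means floxed and not recombined. The 4 conditional knockout animals (CKO) carried hGFAP-Cre, a transgene whose human GFAP promoter removes Pals1 from most neurons and glia of the cerebellum, per the study's design. Cells outside that lineage keep Pals1, which is encoded by Mpp5 and serves as a scaffold for Crumbs proteins at the apical membrane.

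SOX proteins bind the minor groove of DNA through an HMG box and bend it, and most act together with a partner factor such as a POU protein. SOXB1 proteins (Sox1, Sox2, Sox3) hold neural progenitors in an undifferentiated state, and the SOXB2 protein Sox21 counteracts them. SOXE proteins (Sox8, Sox9, Sox10) serve glial fate, and SOXC proteins (Sox4, Sox11) serve early neuronal differentiation. The SOXD protein Sox5 has no transactivation domain of its own and acts in neurons, glia and cartilage.

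The promoters of Sox21 and Sox5 are shown because these were the members with a probe past the test, and that of Sox2 because its protein is the one Sox21 opposes. RefSeq sequences of GRCm38.p6 were found for 7 of the 10 members, each of 250 bases before and 50 after an annotated start. Capitals mark matches on either strand to the SOX cores ACAAAG and ACAATG, the POU octamer ATGCAAAT and the box CCAAT. None of these matches overlapped another in the sequences shown.
Sox21, chr14:118236981-118237280, minus strand: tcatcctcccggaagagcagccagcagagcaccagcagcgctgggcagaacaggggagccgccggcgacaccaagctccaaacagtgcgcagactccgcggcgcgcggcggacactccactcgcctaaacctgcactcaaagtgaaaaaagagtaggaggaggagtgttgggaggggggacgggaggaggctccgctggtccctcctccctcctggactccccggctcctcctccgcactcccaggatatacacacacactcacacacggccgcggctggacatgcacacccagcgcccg
Sox5, chr6:143947057-143947356, minus strand: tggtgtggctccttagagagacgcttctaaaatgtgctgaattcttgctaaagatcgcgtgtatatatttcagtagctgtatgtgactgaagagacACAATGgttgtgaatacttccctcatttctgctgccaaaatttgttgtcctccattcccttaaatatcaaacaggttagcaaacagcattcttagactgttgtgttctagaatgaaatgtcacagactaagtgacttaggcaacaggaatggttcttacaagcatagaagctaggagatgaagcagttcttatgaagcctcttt
Sox2, chr3:34649745-34650044, plus strand: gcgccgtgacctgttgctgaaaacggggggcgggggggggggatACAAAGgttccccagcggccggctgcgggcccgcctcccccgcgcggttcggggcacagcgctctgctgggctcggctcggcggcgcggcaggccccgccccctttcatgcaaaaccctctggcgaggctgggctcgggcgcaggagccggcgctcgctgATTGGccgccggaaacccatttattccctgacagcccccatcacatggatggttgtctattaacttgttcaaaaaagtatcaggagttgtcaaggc

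A SOX core stood in the windows of Sox2 and Sox5, and in 28.6% of all 32851 promoters of that length. The octamer stood in the window of Sox1 alone among the 7 members, at base 19 after the start, and in 1.74% of all promoters. The CCAAT box was found in the windows of Sox1, Sox2, Sox4 and Sox11, with 4 matches in Sox4, and in 37.4% of all promoters. The Sox21 window held none of the 4 motifs, which says only that these letters are absent from it. The Sox5 window lies 835181 bases inside the gene from its annotated 5′ end, at a downstream start, and holds 39.7% G and C against 65.7% for Sox21 and a median of 52.7%. Which isoform each Sox5 probe reads is not known here.

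Some arrays stood apart, and genotype was nearly confounded with sex. Xist, which coats the inactive X in females, was at log2 levels of 9.71 to 10.10 in the WT arrays other than WT.3, and of 6.60 to 6.83 in WT.3 and all CKO arrays. The Y-linked gene Eif2s3y was at 8.98 in WT.3 and 9.26 to 9.59 in CKO, against 5.94 to 6.05 on the other WT arrays. High Xist was thus read in 3 of 4 WT and 0 of 4 CKO animals, so that each difference between the genotypes below rests on WT.3 for its separation from sex. CKO.3 had a mean deviation of 1.5 from the WT mean in markers of meninges and choroid plexus, where CKO.1, CKO.2 and CKO.4 lay between -0.25 and 0.05. The mean of the choroid plexus gene Ttr was lower in CKO (-1.09, limma adjusted p = 0.0150), but the groups overlapped. Ttr was at 8.38 in CKO.3, within the WT range of 8.13 to 8.81. On the other CKO arrays it was at 6.78 to 7.13. Mpp5, on its brighter probe, fell by 0.87 on the log2 scale (SE 0.07, limma adjusted p = 7.17e-06) and read lower on every CKO array. Where that probe lies relative to the deleted part is not known here.

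Among the SOX members, Sox21 had the lowest change of a brightest probe, and it was lower in CKO. Of the 11 tested probes 2 fell, a probe of Sox21 and a probe of Sox5, and none rose at an adjusted p under 0.05 in limma. Over all 19272 tested probes 16.1% were called, 7.98% as lower and 8.15% as higher, so 18.2% of the SOX probes called is near the background. At an unadjusted p under 0.05, 6 SOX probes were lower and 0 were higher, while 13.7% of all tested probes were lower at that level. The 6 probes belong to Sox2, Sox5, Sox8 and Sox21, and probes of the same gene are not independent. The median change of the 11 probes was -0.17 on the log2 scale, against 0.01 over all tested probes. Of the 11, 8 had a negative value, as did 48.2% of all tested probes. The members' standard errors lay between 0.07 and 0.13.

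**Figure D1:**
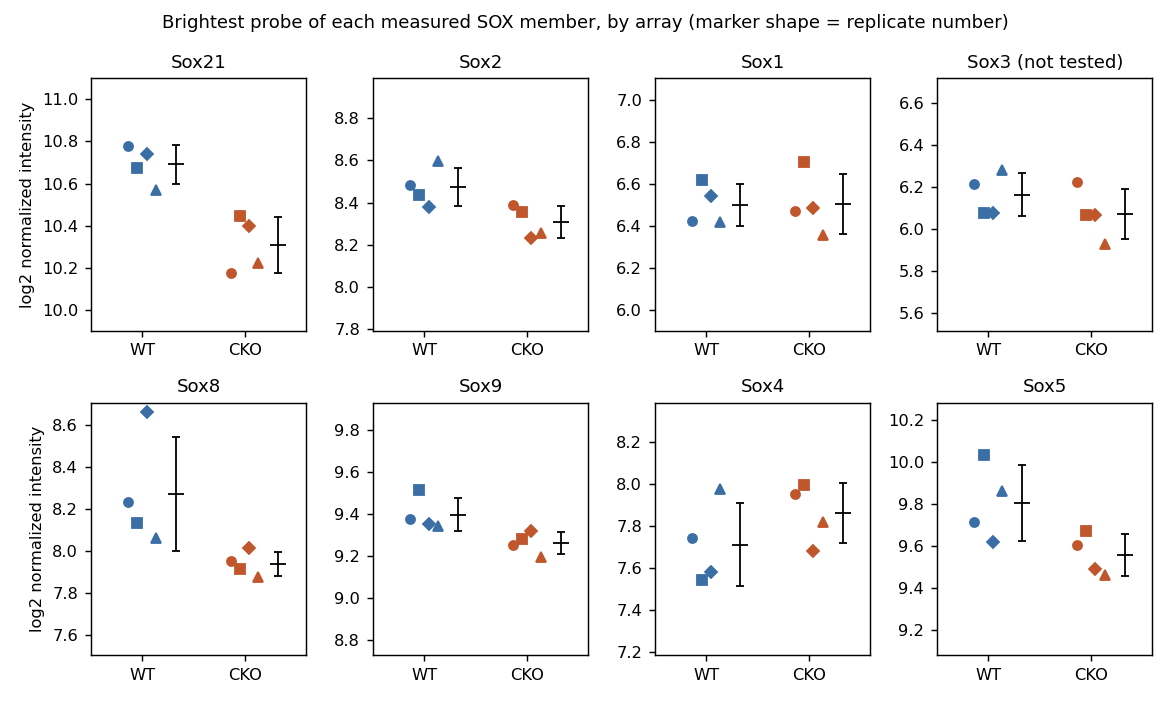
Log2 normalized intensity of the brightest probe of each measured SOX member on the 4 WT (blue) and 4 CKO (orange) arrays. Each point is an animal, marker shapes give the replicate number, and bars are mean ± SD. Each panel spans the same log2 range around its own centre. The groups are apart for Sox21, Sox8 and Sox9 and overlap for the other 5 genes.

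Sox21 maps to chromosome 14 between 118233233 and 118237030 (GRCm38.p6, as for all gene positions here). Its brightest probe, ILMN_1254295, read raw intensities of 1921.9, 1755.4, 1636.9 and 1493.3 in WT.1 to WT.4 and 1241.5, 1285.2, 1395.2 and 1105.8 in CKO.1 to CKO.4. Every CKO array was below every WT array, raw and normalized. WT had a log2 level of 10.69 ± 0.093 (SD, n = 4), and CKO one of 10.31 ± 0.133 (SD, n = 4). Sox21 thus fell by 0.38 in log2 units (SE 0.08, 95% limits of -0.56 and -0.21, limma adjusted p = 0.00603). Alternatives gave an adjusted p of 0.00262 to 0.0957. CKO was at 0.768 of WT. An exact two-sided permutation test over the 70 assignments of the arrays gave p = 0.0286, the smallest it allows. Among probes called lower, the median fall was 0.376 on the log2 scale, and 753 of the 1537 fell by more than Sox21.

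The other Sox21 probes were less clear. ILMN_3163306 read 187.4, 185.4, 196.9 and 163.6 in WT and 176.1, 144.1, 149.6 and 154.9 in CKO, and the groups overlapped. Its change of -0.18 (SE 0.08, limma adjusted p = 0.169) had the same sign. ILMN_2721489 read between 78.6 and 85.0 on all 8 arrays and was not tested. With the mean of the 3 probes Sox21 changed by -0.16 (adjusted p = 0.0676), and its call was lost.

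Sox2, on chromosome 3 between 34649995 and 34652461, was not past the test, and its probes differed in sign. ILMN_2656102, the brighter probe, read 403.3, 382.2, 332.4 and 395.2 in WT and 364.9, 314.3, 316.9 and 287.0 in CKO. The groups overlapped through WT.3 and CKO.1. Its change was -0.17 (SE 0.07, 95% interval -0.32 to -0.01, limma adjusted p = 0.148). ILMN_1248711 read 136.9, 139.7, 108.5 and 184.0 in WT and 152.9, 140.8, 173.2 and 135.1 in CKO. Both the lowest and the highest value belonged to WT, in WT.3 and WT.4. Its change was 0.17 (SE 0.13, limma adjusted p = 0.455), and without WT.4 it was 0.33 and past the threshold (adjusted p = 0.0420, the lowest of its alternatives, which reach 0.840).

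The remaining SOXB1 genes were dim. Sox1, on chromosome 8 between 12395519 and 12399555, read between 90.3 and 114.4 on all arrays and changed by 0.00 (SE 0.08, 95% interval -0.18 to 0.18, limma adjusted p = 0.985). Its array percentiles of 30.4 to 45.6 place it low among all probes, so that a change of this gene may not be visible. Sox3, on the X chromosome between 60891366 and 60893430, read 71.5 to 89.6 and was below the brightness filter. No statement on Sox3 follows from these arrays.

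**Figure D2:**
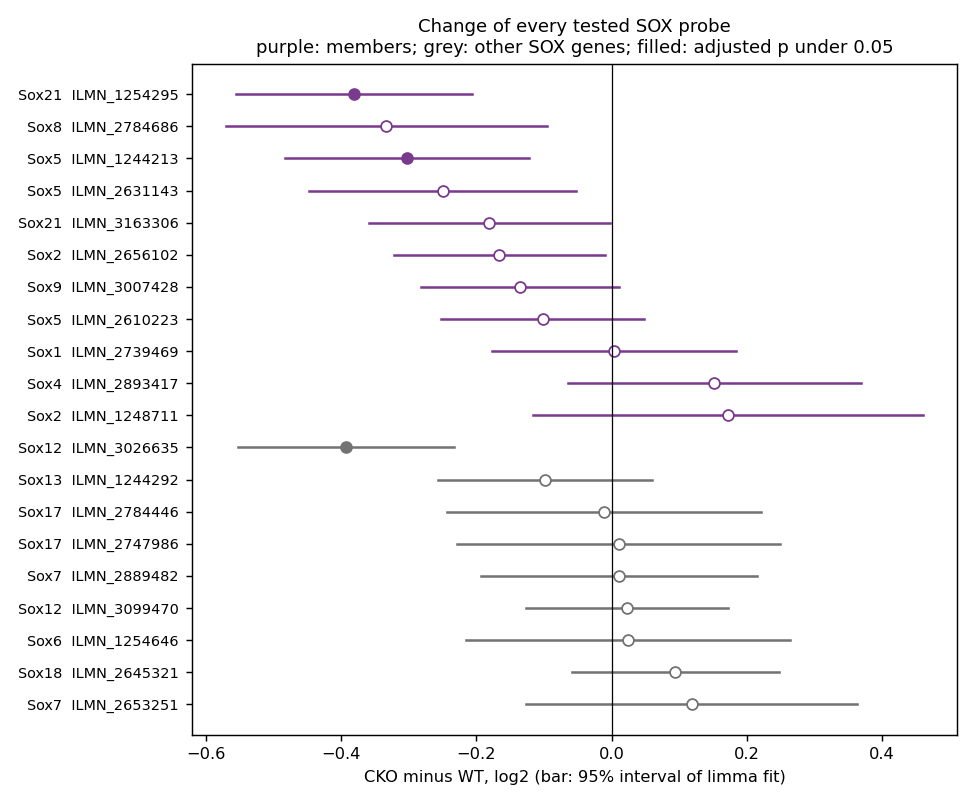
Change in log2 level, CKO minus WT, of every tested probe of the members (purple) and of other SOX genes (grey), with the 95% interval of the limma fit. Filled points have an adjusted p under 0.05. They are a probe each of Sox21 (-0.38), Sox5 (-0.30) and Sox12 (-0.39), and the 2 tested Sox2 probes lie on opposite sides of 0.

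Normalized levels of the glial SOXE members did not overlap between genotypes, with CKO lower, but neither gene passed the adjusted test. Sox8, on chromosome 17 between 25565893 and 25570686, read 341.7, 310.9, 398.5 and 276.9 in WT and 274.5, 236.3, 273.4 and 222.3 in CKO. WT.4 was almost as low as CKO.1, and WT.3 was the highest. The change was -0.33 (SE 0.11, 95% interval -0.57 to -0.10, limma adjusted p = 0.0554), just above the threshold, and alternatives spanned 0.00886 to 0.128. It was -0.20 without WT.3 (adjusted p = 0.0989) and -0.40 without WT.4 (adjusted p = 0.0307).

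Sox9, which starts gliogenesis in the neural tube and marks Bergmann glia in the cerebellum, maps to chromosome 11 between 112782210 and 112787757. Its probe read 742.2, 795.7, 637.4 and 653.5 in WT and 651.5, 577.7, 662.8 and 534.2 in CKO. The raw groups overlapped, and the normalized ones were apart by a small margin, with a lowest WT level of 9.34 and a highest CKO level of 9.32. The change was -0.14 (SE 0.07, 95% interval -0.28 to 0.01, limma adjusted p = 0.214). Sox9 passed the threshold under none of the 19 alternatives (adjusted p of 0.117 to 0.707).

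For Sox8 and for Sox9 the exact permutation test gave p = 0.0286 before any adjustment. Probes whose normalized groups did not overlap made up 4 of the 11 SOX probes, against 19.7% of all tested probes.

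Of the neuronal members, Sox4 was the one with a higher mean in CKO. Sox4, on chromosome 13 between 28948919 and 28953699, read 242.8, 210.0, 197.7 and 261.9 in WT and 275.0, 249.3, 219.3 and 214.4 in CKO. The groups overlapped widely, and the change was 0.15 (SE 0.10, 95% interval -0.07 to 0.37, limma adjusted p = 0.367).

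Sox5 spans 953863 bases of chromosome 6, between 143828425 and 144782287, and was read by 4 probes. ILMN_2631143, the brightest, read 929.4, 1134.0, 759.5 and 930.5 in WT and 838.0, 757.3, 745.2 and 644.1 in CKO. The groups overlapped through WT.3, and the change was -0.25 (SE 0.09, limma adjusted p = 0.0824). Without WT.3 it was -0.31 and past the threshold (adjusted p = 0.0404, the lowest of its alternatives, which reach 0.852).

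ILMN_1244213, a dimmer Sox5 probe, read 210.3, 261.4, 203.6 and 223.9 in WT and 190.5, 179.2, 169.9 and 161.3 in CKO. All CKO arrays were below all WT arrays. The level fell by 0.30 in log2 units (SE 0.08, 95% limits of -0.48 and -0.12, limma adjusted p = 0.0251). That call was lost when WT.2, WT.4, CKO.1, CKO.3 or CKO.4 was left out, with adjusted p of 0.0501 to 0.0869. Alternatives spanned 0.0147 to 0.344. ILMN_2610223 changed by -0.10 (limma adjusted p = 0.385), and ILMN_1213910 read 69.9 to 90 and was not tested. The 3 tested Sox5 probes thus had the same sign, and 1 of them passed.

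**Figure D3:**
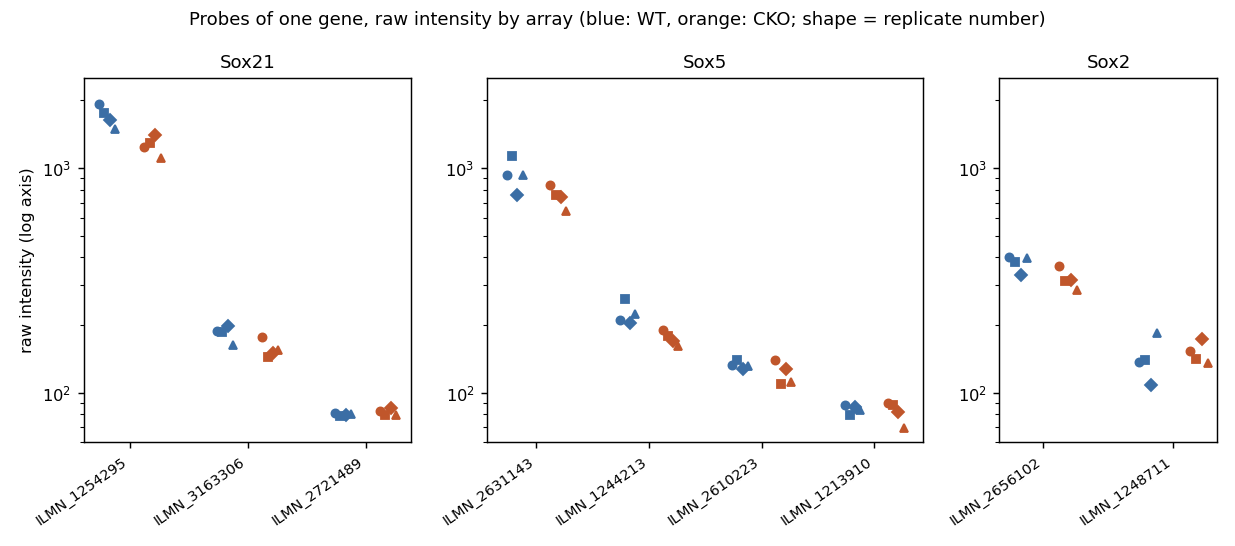
Raw intensity on a log axis of every probe of Sox21, Sox5 and Sox2 on the WT (blue) and CKO (orange) arrays, marker shapes giving the replicate number. Probes run from brightest to dimmest within a gene. The dimmest probes of Sox21 and Sox5 lie lowest, at 69.9 to 90 over all arrays.

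Members were then compared in pairs, within the SOXB or SOXE class except for Sox2 with Sox9, the only pair of a progenitor and a glial member. No pair that was run held a neuronal member. For the difference of 2 members' log2 levels on each array, CKO and WT were compared by an exact two-sided permutation test. Of 11 pairs planned, 4 could be run, since the others involve Sox3, Sox10 or Sox11. The difference between Sox2 and Sox21 was higher in CKO by 0.22 (SE 0.12, p = 0.114, exact, adjusted p = 0.343 over the 4 pairs). Sox8 relative to Sox9 changed by -0.20 (SE 0.15, exact adjusted p = 0.343), and Sox1 relative to Sox2 by 0.17 (SE 0.11, exact adjusted p = 0.343). Sox2 relative to Sox9 changed by -0.03 (SE 0.08, exact adjusted p = 0.771). None of these 4 pairs was thus shown to differ in its change, and 4 animals a group cannot show that the members act alike. The neuronal members Sox4 and Sox5 were not compared with the others in this way.

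By class, the tested probes of SOXB genes had a median change of -0.17 (5 probes), those of SOXE genes -0.23 (2 probes) and those of SOXC and SOXD genes -0.18 (4 probes). Of the 4 SOXC and SOXD probes 3 belong to Sox5. On the brightest tested probe of each gene the medians were -0.17 for SOXB (3 genes), -0.23 for SOXE (2 genes) and -0.05 for SOXC and SOXD (2 genes), where Sox4 was at 0.15 and Sox5 at -0.25. With Sox10 and Sox11 missing, each class lacks a main member or rests on few probes.

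Among the other SOX genes, Sox12, the third SOXC gene, fell. Its brighter probe, ILMN_3026635, read 506.7, 551.6, 476.2 and 472.7 in WT and 376.5, 316.4, 407.8 and 352.4 in CKO, with all CKO arrays below all WT arrays. Its change was -0.39 in log2 units (SE 0.07, limma adjusted p = 0.00279, with 0.00108 to 0.0687 under the alternatives). Its dimmer probe, ILMN_3099470, changed by 0.02 (adjusted p = 0.882), and with the mean of both Sox12 changed by -0.19 (adjusted p = 0.0616). Of 9 genes in this list 8 were on the array and 6 were tested on their brightest probe, against a background of 17.5% called for such probes. Sox12 alone was called, none was higher at an unadjusted p under 0.05, and the median change was 0.01. Sox13, a SOXD gene, was at -0.10 (adjusted p = 0.433). The endothelial SOXF genes Sox7, Sox17 and Sox18 were at 0.01, 0.01 and 0.09 on their brightest probes. Sox6, a SOXD gene, was at 0.02 on a dim probe that read 83.8 to 113.6. Of 4 tested endothelial markers none was called, 3 were higher at an unadjusted p under 0.05, and their median change was 0.21.

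POU factors, which pair with SOXB1 proteins on DNA, moved in both directions, with 1 of 4 tested partners higher and 1 lower. Of all brightest probes 17.5% were called. Pou3f1, also known for its part in myelinating cells, read 295.6, 246.0, 220.7 and 270.5 in WT and 371.9, 332.7, 312.7 and 327.8 in CKO. All CKO arrays were above all WT arrays, and it rose by 0.49 (SE 0.09, limma adjusted p = 0.00213). Pou3f3, a neural POU factor, fell by 0.30 on the log2 scale (SE 0.07, limma adjusted p = 0.00882). Its probe was dim, at 127.1 to 144.6 in WT and 102.2 to 115.3 in CKO. Pou3f2 was at -0.12 (adjusted p = 0.354) and Pou3f4 at -0.20 (adjusted p = 0.128). Pax6 was too dim to be tested.

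Genes reported elsewhere as targets of SOX proteins did not share a direction. Their calls stand beside 17.5% of all brightest probes called in either direction. Of 3 SOXB1 targets, the receptor gene Notch1 fell by 0.35 on the log2 scale (SE 0.09, limma adjusted p = 0.0152). That call was lost without WT.2 or CKO.4 (adjusted p of 0.0539 and 0.0523, with 0.00610 to 0.460 under the alternatives). Hes5, a Notch effector, was at -0.28 (adjusted p = 0.0666), and Nes, the progenitor filament nestin with an enhancer bound by Sox2, was at -0.02 (adjusted p = 0.934).

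Of 3 SOXC targets, Tead2, a Hippo pathway factor, fell by 1.07 on the log2 scale (SE 0.12, limma adjusted p = 8.25e-05). Dcx, the microtubule protein of migrating neurons, rose by 0.35 (SE 0.08, limma adjusted p = 0.00899). A second bright Dcx probe, ILMN_2931623, was at 0.23 (limma adjusted p = 0.103), and its groups overlapped. Tead2 read 1968.9, 2069.3, 2055.3 and 1738.3 in WT and 924.8, 808.7, 1230.2 and 697.5 in CKO, and all CKO arrays were below all WT arrays. The neuronal tubulin Tubb3 was at 0.06 (adjusted p = 0.798), on a probe that read only 142.8 to 188.2.

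Of the SOXE targets, 4 could be tested. Col2a1, a collagen driven by Sox9 in cartilage, fell by 0.60 on the log2 scale (SE 0.09, limma adjusted p = 5.58e-04), and its second probe, ILMN_2759144, by 0.41 (adjusted p = 0.00399). Col9a1, a collagen of the same programme, was at 0.10 on its brightest probe (adjusted p = 0.522). Its other probes were at 0.02 (adjusted p = 0.899) and -0.24 (adjusted p = 0.0503). On the last of these every CKO array was below every WT array. All Col9a1 probes were dim, at 75.5 to 160.0. Mbp, the myelin basic protein, was at 0.01 (adjusted p = 0.969), and Acan, a cartilage proteoglycan, at 0.00 (adjusted p = 0.995). The Acan probe read 92.3 to 99.7, so that a change may not be visible. Nfia was too dim to be tested.

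Levels of cell type markers moved beside these values, and in whole tissue fewer cells of a type and less RNA per cell cannot be told apart. Radial and Bergmann glia, which carry Sox2 and Sox9, had 6 tested markers of 7, with 1 higher (Tnc, 0.32) and 1 lower (Vim, -0.37) and a median change of 0.05. Of all brightest probes 17.5% were called. The summed normalized intensity of the glial markers, most of it from Slc1a3, ranged from 27542 to 31057 in WT and from 26998 to 31882 in CKO. Slc1a3, the glutamate transporter of these glia, was at -0.08 (limma adjusted p = 0.625), and Hopx was too dim to be tested. Fabp7 was dim, at 93.2 to 127.4 on all arrays. The summed ranges of both genotypes overlapped in the glial marker list. The part of these markers in the Sox2, Sox9 and Sox21 values was not tested.

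Of 5 tested markers of the oligodendrocyte lineage, whose cells express Sox8 and Sox5, 2 fell and none rose at an adjusted p under 0.05, where 17.5% of all brightest probes were called. Their median change was -0.29. Their summed intensity ranged from 6708 to 9337 in WT and from 6077 to 6524 in CKO, most of it from Olig1. Pdgfra, the growth factor receptor of precursors and also of meningeal cells, fell by 0.98 on the log2 scale (SE 0.17, limma adjusted p = 0.00170) and Gpr17, a receptor of the lineage, by 0.67 (SE 0.10, adjusted p = 6.89e-04). The Pdgfra values in CKO were uneven, with 654.2 in CKO.3 and 311.2 to 366.7 on the other CKO arrays. WT read 689.0 to 919.6. Olig1 was at -0.29 (adjusted p = 0.0673), Olig2 at 0.08 (adjusted p = 0.630) and Cspg4, a proteoglycan of precursors, at 0.09 (adjusted p = 0.438). The Olig2 probe read 95.7 to 129.2, a low level at which a change may not be visible. The part of these markers in the Sox8 and Sox5 values was not tested.

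Beside the counts that follow, 17.5% of all brightest probes were called. Markers of granule cell progenitors fell in 4 of 4 tested genes, with a median change of -1.44 and a summed intensity of 5866 to 6679 in WT and 1893 to 2991 in CKO. Atoh1, their defining factor, was too dim to be tested. Early neuron markers rose in 3 of 4 genes, with a median change of 0.34 and a sum of 26271 to 27668 in WT and 31675 to 37451 in CKO. Purkinje cell markers rose in 4 of 4 tested genes, with a median change of 0.77, and Calb1 was too dim to be tested. Microglial markers rose in 4 of 4, with a median change of 0.48. Of 4 tested genes listed for GABAergic interneuron progenitors 1 fell. Their median change was 0.11, but they did not share a direction. Ptf1a fell by 0.96 on the log2 scale (limma adjusted p = 1.31e-04). Pax2, Lhx5 and Lhx1 were at 0.11, 0.11 and 0.38 and were not called. The Pax2 probe was dim, at 87.6 to 106.3 on all arrays, so that a change may not be visible. Sox4 was at 0.15 beside these lists and Sox21 at -0.38. The part of these markers in the Sox21 and Sox12 values was not tested.

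**Figure D4:**
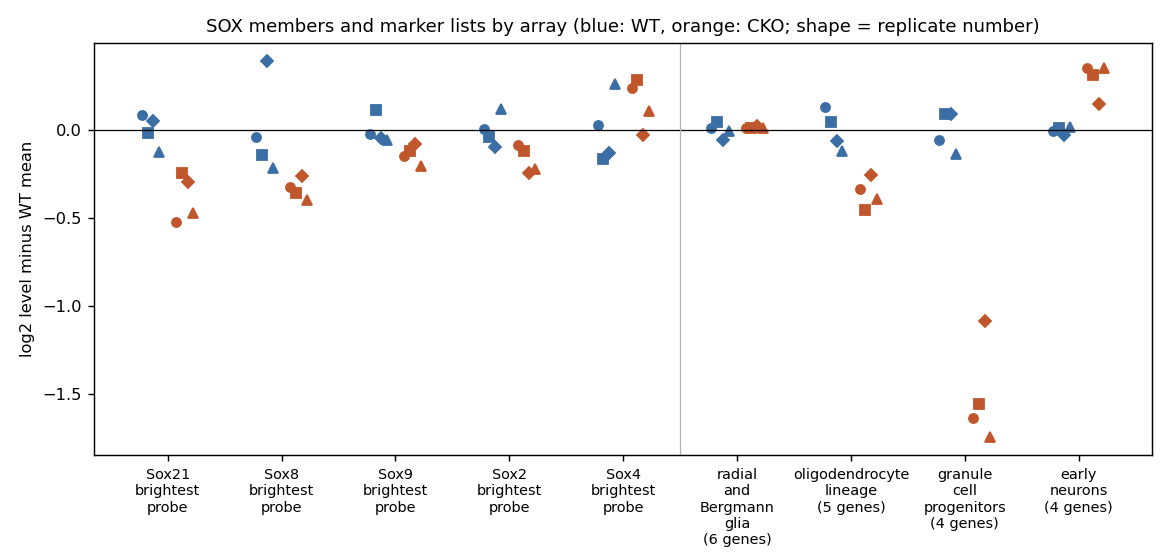
Log2 level minus the WT mean on each WT (blue) and CKO (orange) array, for the brightest probe of 5 SOX members and for the mean over the tested genes of 4 marker lists. Sox21 lies below the WT arrays in all CKO arrays. The glial markers lie near 0, the granule cell progenitor markers lie lowest, and CKO.3 is the least lowered of the CKO arrays in that list. Among its genes CKO.3 stood clear of the other CKO arrays in Mfap4 (9.30 against 7.73 to 8.11) and Insm1 (10.19 against 9.36 to 9.76). It lay close to them in Barhl1 (8.48 against 8.24 to 8.48) and Ccnd2 (9.59 against 9.23 to 9.56).

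The arrays that stood apart were left out or adjusted for in turn. Without CKO.3 Sox21 changed by -0.41 (limma adjusted p = 0.00459) and Sox8 by -0.36 (adjusted p = 0.0507). With the Xist level as a covariate Sox21 changed by -0.42 (SE 0.13, adjusted p = 0.0957), Sox12 by -0.42 (adjusted p = 0.0687), Sox5 on ILMN_1244213 by -0.24 (adjusted p = 0.344) and Sox8 by -0.73 (adjusted p = 0.00886). Under that covariate Sox8 was thus the SOX probe past the threshold, and it rests on WT.3, the one WT array with low Xist and the one with the highest Sox8 value. For Sox21, WT.3 was at a log2 level of 10.74 and the CKO arrays at 10.17 to 10.45.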

How the data were processed

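Cerebellar RNA of 4 WT and 4 CKO mouse embryos was hybridized to Illumina BeadArrays, and groups and replicate numbers come from the sample titles. The first deposited table holds an intensity per probe, exported from BeadStudio per the labels, with medians from 118.7 to 133.5 per array and no detection p-values or slide names in the columns used. The second deposited table holds log2 values that the authors quantile-normalized, as its values show: they lie within 0.0137 of log2 quantile-normalized intensities.

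Intensities were corrected with limma 3.58.1 in R 4.3.3 (normexp, offset 50), quantile-normalized and log2-transformed. The offset pulls changes of dim probes towards 0. Probes with a mean above the lower quartile, 6.26, were tested (19272), two-sided, with lmFit and eBayes and genotype as the only term. P-values were adjusted over all tested probes by the Benjamini-Hochberg method at 0.05. Probes were the unit, since all probes of a member count. The fit was tested on simulated data with independent normal noise. It recovered 78% of planted log2 changes of 0.5 and 97% of those of 1, with 3.85% of calls false. Smaller changes, such as those of the SOX members, were not simulated.

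Named were all probes of the members, and of each of the 5 other lists up to 4 genes past the threshold by size, filled to 2 by smallest p. Other names, markers included, were added after their values were seen. The members and lists were chosen with earlier results of these data known. Symbols are those of the annotation, and 1719 probes had none. For arrays, their number limits the precision. Alternatives covered background, normalization, filter, probe rule, array weights, the Xist level, the replicate number and leaving out each array. The detection filter and the slide block were not run. Figures used matplotlib 3.10.9.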

Additional observations from a re-analysis of the deposited data

Results flagged for a closer look

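Among the tested SOX probes, the genes named from the lists and Mpp5, 44 groups of 4 arrays were checked for a sample far from the others, and chance alone marks about 1 in 20 groups. The single case was Pou3f1 in CKO.3, at a log2 level of 8.21 against 8.42 to 8.47 on the other CKO arrays. It still lay above all WT arrays.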

How the results depend on the processing

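The fall of Sox21 kept its direction under all 19 alternatives and its call under 17 of them. It was lost with the mean of its probes (-0.16) and with the Xist covariate (-0.42), and it ranged from -0.43 to -0.34 when an array was left out. The count of lower SOX probes was 1 with one probe per gene, which leaves out the called Sox5 probe by construction, 1 with the Xist covariate and 1 to 3 when an array was left out. The count of higher ones was 0 to 1. Over all probes 1571 were higher and 1537 lower. With the Xist covariate 451 were higher and 555 lower, with median scaling 1053 and 1824, a split that favours falls. Leaving out an array gave 1021 to 1800 and 1073 to 1685, with the fewest higher calls without WT.2 (1021) and CKO.4 (1024).

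Signs changed in results that were not called. Sox1 changed by -0.0335 with the Xist covariate and by -0.0624 to 0.0520 when an array was left out, and it was negative without WT.1, WT.4 or CKO.2. With probes averaged per gene, Sox2 was at 0.0026 and Col9a1 at -0.0378. Sox2 relative to Sox9 ranged from -0.0811 to 0.0282 when an array was left out, Sox1 relative to Sox2 from 0.10 to 0.22, Sox8 relative to Sox9 from -0.28 to -0.05 and Sox2 relative to Sox21 from 0.14 to 0.30.

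Sox8 passed with median scaling, the filter at the median probe, array weights, the Xist covariate, the replicate block and without WT.4, in 6 of 19 alternatives. Dcx lost its call with median scaling (0.25). With the Xist covariate, where standard errors were larger, Dcx (0.46, SE 0.13, against 0.35, SE 0.08) and Pou3f3 (-0.28, SE 0.11, against -0.30, SE 0.07) lost their calls at a similar or larger change, and Notch1 lost its call at a smaller one (-0.19, SE 0.13, against -0.35, SE 0.09). Other causes were not tested. Same-numbered animals deviated together with correlations of -0.05 to 0.14. The sample titles name no pairing, and so few correlations cannot exclude one. With the replicate block Sox21 stayed at -0.38 (limma adjusted p = 0.0101), 3 SOX probes were lower, and 1465 probes were higher and 1457 lower.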
